A study of Mus musculus with 40 samples.

Results

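Clone H4 is 1 of 3 *Cdk8* KO clones of mESCs (mouse embryonic stem cells, which are pluripotent and derive from the blastocyst), and it was compared with the other 2, B9 and C8. Its members were all libraries labelled as clone H4 in the multiplex that holds the *Cdk8* KO cells (a multiplex is a set of libraries sequenced together), which gave 2 libraries, against 4 of B9 and C8, out of 20 libraries in the series. The clone was chosen by its levels of actin and SRF target genes, which had stood apart from those of the other clones in earlier results from these counts. The difference between H4 and the other clones is therefore given as a description, with values and standard errors but without p-values, and counts of genes past a threshold are not read as evidence that H4 differs.

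Each clone gave 1 mRNA library after 4 h of DMSO and 1 after 4 h of AZD6738 at 900 nM, which inhibits the DNA damage kinase ATR (ATRi). The other genotypes were wild type (WT, 2 biological replicates), present in each multiplex, and *Ccnc* KO, with the clones D1, G2 and H5. Per the study, the same WT samples were pooled into each multiplex. They are therefore counted in both, and the WT levels of the multiplexes are not independent. All clones are *Atm* WT, were made with CRISPR-Cas9 and were grown in serum and LIF on gelatin. Each clone is 1 line with its own pair of small insertions or deletions in *Cdk8*, and 1 allele of H4 carries a larger insertion. The DMSO and ATRi libraries of a clone come from the same line, so the comparison sets 1 line against 2, and a permutation of the 3 clones could not give a two-sided p below 0.333.

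CDK8 is a cyclin-dependent kinase that, with Cyclin C (*Ccnc*), MED12 and MED13, forms the kinase module of Mediator, the complex that links transcription factors to RNA polymerase II. Serum response factor (SRF) switches on genes of the actin cytoskeleton with the MRTF coactivators, which are released into the nucleus when actin is assembled, and YAP with TEAD factors acts on an overlapping set of adhesion and matrix genes. SRF binds the CArG box, and TEAD factors bind the M-CAT motif. Imprinted genes, which are transcribed from 1 parental allele, are known to vary between lines of mESCs because the DNA methylation that marks the allele can be lost or gained in culture.

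The guide RNA used to make the *Cdk8* KO clones is shown because it is what the 3 clones share. It matches the plus strand of GRCm38.p6 at chr5:146292673-146292692, in the coding sequence of exon 7 of 13 of *Cdk8*, and the capitals mark the PAM that follows it.
*Cdk8* guide: aatatttcactgtcgacaagAGG

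The promoters of 3 actin genes are shown because these genes were among the most different between the clones. Each is the 250 bases before the start that RefSeq gives on GRCm38.p6, from the minus strand, and capitals mark every match to the exact consensus of the CArG box, with no mismatch allowed, or to M-CAT, searched on both strands as GGAATG or CATTCC. They lie at chr8:123894776-123895025 (*Acta1*), chr2:114052876-114053125 (*Actc1*) and chr19:34255374-34255623 (*Acta2*). The start used for *Acta1* is not a transcript start in the GENCODE annotation used for coordinates here. The window of *Actc1*, and most of that of *Acta2*, lies inside the span that GENCODE gives the gene. Distances to a start below therefore hold for the RefSeq start only.
*Acta1*: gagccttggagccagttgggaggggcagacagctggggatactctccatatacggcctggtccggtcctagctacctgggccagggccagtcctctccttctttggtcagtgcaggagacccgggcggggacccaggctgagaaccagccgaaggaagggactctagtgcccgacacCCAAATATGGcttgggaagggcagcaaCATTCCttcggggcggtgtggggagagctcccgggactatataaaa
*Actc1*: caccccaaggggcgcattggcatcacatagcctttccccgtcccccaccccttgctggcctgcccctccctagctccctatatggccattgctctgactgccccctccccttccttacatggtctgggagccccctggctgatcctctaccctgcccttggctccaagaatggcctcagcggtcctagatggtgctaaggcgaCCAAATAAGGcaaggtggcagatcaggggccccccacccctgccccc
*Acta2*: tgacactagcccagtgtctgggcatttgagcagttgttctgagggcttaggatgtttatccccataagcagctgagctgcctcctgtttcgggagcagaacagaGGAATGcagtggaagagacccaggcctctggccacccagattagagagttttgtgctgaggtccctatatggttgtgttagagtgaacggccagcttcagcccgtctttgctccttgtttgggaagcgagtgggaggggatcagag

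The *Cdk8* KO libraries held between 30899823 and 67274049 counts on genes, and the share of mitochondrial genes in the H4 libraries (1.26% and 1.41%) lay within that of the other libraries. Levels are given as CPM, the counts scaled to library size with TMM, and in the order DMSO then ATRi for each clone. The targeted transcript was examined first. *Cdk8* stood at 57.6 and 52.4 CPM in B9, 64.3 and 55.1 in C8 and 57.0 and 56.4 in H4, against 71.1 to 78.8 in 3 WT libraries and 57.2 in WT replicate 2 under ATRi. All 6 *Cdk8* KO libraries lay below those 3. The clones overlapped, with a log2 fold change of H4 against B9 and C8 of -0.01 ± 0.07 (standard error, as for all fold changes below). A small insertion or deletion does not have to change the transcript level, so the level alone does not show that a clone lacks the protein. The study checked its KO clones for loss of the protein by western blot and genotyped them. None of the other genes of the kinase module was called either, with differences from -0.11 (*Med13*) to 0.37 (*Med12l*). The 10 pluripotency markers, with *Pou5f1* at 1122 and 1161 CPM in H4, summed to 3803 to 4070 CPM in H4, 4749 to 4927 in B9, 4391 to 4555 in C8 and 5049 to 5425 in WT cells, and none of them was called. Each clone thus held the pluripotency markers at a high level, with H4 lowest.

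Distances between libraries were compared next. The median absolute log2 difference over 13568 genes was 0.102 between the DMSO and ATRi libraries of H4, 0.0995 within B9 and 0.107 within C8. At the same treatment it was 0.150 to 0.167 between H4 and B9, 0.132 to 0.159 between H4 and C8, and 0.103 to 0.119 between C8 and B9. Differences past 2-fold were found for 3.62 to 3.66% of genes between H4 and B9, 1.65 to 2.01% between H4 and C8, and 0.369 to 0.752% between C8 and B9. H4 was thus the most distant of the 3 clones at both treatments, and the difference between treatments within a clone was smaller than that between any 2 clones by the share of genes past 2-fold.

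With treatment as a covariate, 531 of 17693 genes were higher in H4 (3.00%) and 112 were lower (0.633%), at an edgeR adjusted p under 0.05 and a fold change above 2 or below 0.5; genes past both thresholds are referred to as called. Against single clones, 1121 genes were called between H4 and B9 (6.34%) and 559 between H4 and C8 (3.16%), whereas C8 against B9 had 120 genes higher (0.678%) and 24 lower (0.136%). These counts between single clones come from another fit, with a term for each clone. Its spread is that between the libraries of a line, so they are not on the same scale as the 531 and 112. The number for H4 against B9 and C8 together rested on having both libraries of H4. Without the DMSO library of H4 it was 25 genes and without the ATRi library 28, while without both libraries of C8 it was 1188. For C8 against B9, 285 genes were called without the ATRi library of C8. All 531 genes called higher had both H4 libraries above the 4 libraries of B9 and C8, and 416 of them were past 2-fold over each clone taken alone. Of the 112 called lower, 110 had both H4 libraries below the others, and 74 were past 2-fold under each clone. Irrespective of size, both H4 libraries lay above all 4 libraries of B9 and C8 for 20.4% of the genes tested and below them for 17.7%.

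Relative to WT, the 531 genes had a median log2 difference of 1.14 in H4, 0.22 in C8 and 0.01 in B9, so that H4 lay above WT and B9 close to it. The 112 genes had medians of -0.59 in H4, 0.12 in C8 and 0.50 in B9, where H4 lay below WT and B9 above it. Both sets held genes of low level, with a median of 1.68 CPM (higher) and 1.83 CPM (lower) against 11.2 CPM over all genes tested, and 251 of the 531 had a mean under 1 CPM in B9 and C8. Protein-coding genes made up 95.5% of the genes called higher, 83.0% of those called lower and 79.2% of all genes. The same count was made for every clone of both knockouts. With a mean of at least 1 CPM, 525 genes were past 2-fold without overlap between H4 and the other clones of its knockout (3.78%, 432 higher and 93 lower), 342 between B9 and the others (2.48%, 51 higher and 291 lower) and 26 for C8 (0.189%). The *Ccnc* KO clones had 35 such genes (D1, 0.255%), 13 (G2, 0.0951%) and 41 (H5, 0.298%).

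The 12 genes with the largest higher values included 4 actins, which belong to the genes by which the clone was chosen. *Acta2*, the smooth muscle actin (chr19:34241090-34255590, minus strand), stood at 4.62 and 4.24 CPM in B9, 40.8 and 47.4 in C8 and 192 and 211 in H4, against 1.35 to 3.63 in WT cells. The clones did not overlap and formed 3 steps, with B9 above WT. The highest WT value was that of replicate 2 under ATRi, and the other WT libraries had at most 2.46 CPM. Its log2 fold change was 3.07 ± 0.81 for H4 against the other clones and 3.31 ± 0.08 for C8 against B9, which compares 1 line with 1 other. *Acta1*, the skeletal muscle actin, had 0.54 and 0.77 CPM in B9, 4.00 and 4.85 in C8 and 25.9 and 27.1 in H4 (3.42 ± 0.62), in the same order of clones. *Actc1*, the cardiac actin, had 0.04 and 0.15 CPM in B9, 2.00 and 2.69 in C8 and 9.27 and 10.6 in H4 (3.08 ± 0.83), again with C8 between B9 and H4. The upstream sequences printed above hold a CArG box 73 bases before the start of *Acta1* and 47 bases before that of *Actc1*, whereas that of *Acta2* holds an M-CAT motif 146 bases before the start and no exact match to the CArG consensus. Imperfect matches were not searched for, so this does not say that the *Acta2* promoter lacks a CArG box.

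**Figure D1:**
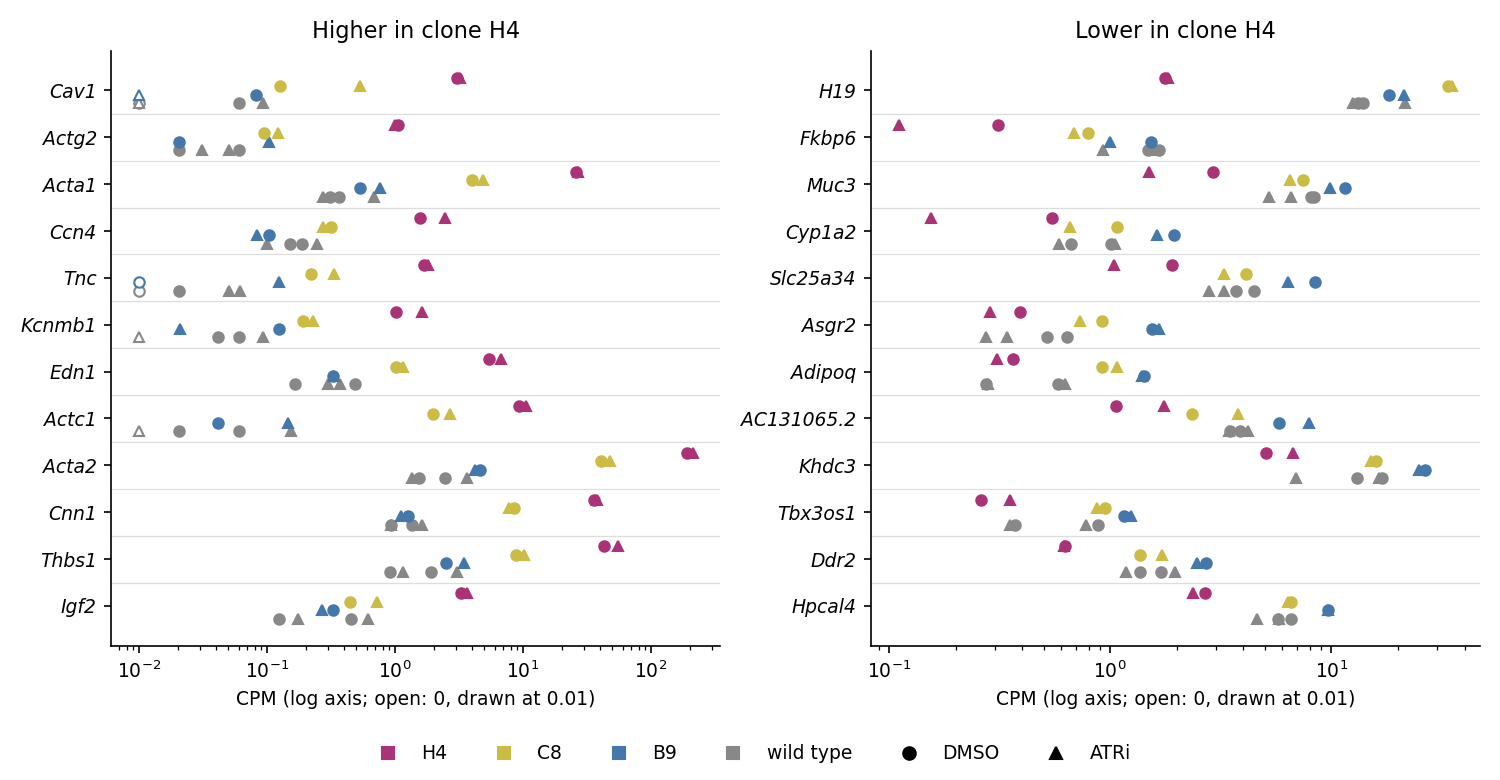
Level in CPM (log axis) of the 12 genes with the largest higher and the 12 with the largest lower log2 fold change in H4, with 1 point per library, coloured by clone or WT and shaped by treatment (open points are at 0 CPM and drawn at 0.01). Only genes with both H4 libraries outside the range of B9 and C8 were eligible, so the gap between H4 and the others was set by this choice. For *Acta1*, *Actc1*, *Acta2* and *Cnn1* the C8 libraries lay between B9 and H4.

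Others of the 12 encode proteins of muscle, membrane and matrix. *Cnn1* (calponin of smooth muscle) had 35.7 and 38 CPM in H4 and 1.12 to 8.53 in the other clones (3.01 ± 0.65). *Actg2*, a further smooth muscle actin, and *Kcnmb1*, a subunit of a potassium channel of smooth muscle, had 0.99 to 1.63 CPM in H4 and at most 0.23 in the others, with log2 fold changes of 3.55 ± 0.41 and 3.20 ± 0.48. *Cav1*, the caveolin that forms membrane caveolae, had the largest value (3.94 ± 0.63), with 3.04 and 3.20 CPM in H4 and 0 to 0.53 in B9 and C8, where B9 held 4 counts in all. The matrix genes *Thbs1* (2.99 ± 0.44), *Tnc* (3.36 ± 0.56) and *Ccn4* (3.40 ± 0.40), the vasoconstrictor *Edn1* (3.13 ± 0.41) and the growth factor *Igf2* (2.95 ± 0.30) completed the 12. *Thbs1* had the highest level of these, with 42.8 and 55.0 CPM in H4 against 2.49 and 3.45 in B9 and 8.85 and 10.1 in C8.

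Of 38 genes of the SRF and actin list, 19 were called higher in H4 and none lower (3.00% and 0.633% of all genes, to be set beside each list below), with a median log2 fold change of 0.96 against -0.01 over all genes. The list was chosen with the pattern of H4 known, and the count carries no weight as evidence. Besides the actins and *Cnn1*, the called members were *Tagln* (transgelin, 120 and 134 CPM in H4, 29.5 and 30.9 in C8, 5.50 and 6.19 in B9), *Tgfb1i1*, *Lmod1*, *Fhl2*, *Csrp1*, *Filip1l*, *Myl9*, *Myh11*, *Tpm1*, *Zyx*, *Cnn2*, *Synpo2*, *Tpm2* and *Tpm4*. The actins found in every cell were not called, with *Actb* at 0.00 ± 0.06 and *Actg1* at 0.31 ± 0.04. Among the regulators, *Srf* itself was not called (log2 fold change 0.46 ± 0.06). It had 81.9 and 90.7 CPM in H4, 56.6 to 69.0 in the other clones, 70.5 to 78.7 in 3 WT libraries and 101 in WT replicate 2 under ATRi, while *Mrtfa* (0.08 ± 0.06) and *Mrtfb* (0.01 ± 0.06) overlapped between the clones. Relative to WT, the list had medians of 0.06 in B9, 0.25 in C8 and 1.00 in H4. The corresponding medians were 0.22, 0.16 and 0.27 in the *Ccnc* KO clones D1, G2 and H5.

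The YAP list holds targets of YAP and TEAD, the effectors of the Hippo pathway, together with these factors themselves and regulators of the pathway. Of its 26 members, 10 were called higher (3.00% of all genes) and none lower (median 0.50). Those called included *Tead3*, *Amotl1* and *Ptpn14*, so the count is not one of targets alone. *Ccn2*, a matricellular protein and a standard readout of YAP, had 29.8 and 33.1 CPM in B9, 64.3 and 74.9 in C8 and 160 and 202 in H4 (1.84 ± 0.33), whereas WT libraries had 30.5 to 36.5. H4 was highest, C8 intermediate and B9 at the WT level. *Ccn1* (1.92 ± 0.18), the receptor kinase *Axl* (2.29 ± 0.28) and the ankyrin-repeat factor *Ankrd1* (2.00 ± 0.21) were also called, with C8 and B9 overlapping for *Ankrd1*. For *Ankrd1* and *Ccn1* every *Cdk8* KO library lay above WT. *Ankrd1* had 0.60 to 1.27 CPM in B9 and C8 and 0 to 0.04 in WT cells. *Ccn1* had 18.1 to 34.0 CPM in B9 and C8 and 10.7 to 17.8 in WT cells. For *Axl*, B9 (1.98 and 1.06 CPM) overlapped WT (1.08 to 1.83). The transcription factors *Yap1* (0.03 ± 0.04) and *Wwtr1* (0.26 ± 0.07) were not called, and of the TEAD genes only *Tead3* was (1.40 ± 0.16). In the 250-base windows, a CArG box was found in 11 of 31 promoters of the SRF list (35.5%), in 0 of 20 of the YAP list, in 13 of 380 of the genes called higher (3.42%), in 0 of 76 of those called lower and in 1.18% of all genes tested that have a window. M-CAT was found in 22.6%, 50%, 16.6%, 10.5% and 10.8% of the same sets. These are matches of letters, not sites shown to be bound. The genes called higher include SRF targets of the kind by which the clone was chosen. Their share with a CArG box therefore carries no weight as evidence.

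Several keratins were called higher. *Krt8*, a keratin of simple epithelia and of the trophectoderm, had 18.0 and 16.6 CPM in B9, 30.5 and 30.9 in C8 and 133 and 140 in H4, against 6.62 to 9.39 in WT cells. Every *Cdk8* KO library was above WT, with H4 far above the others (2.51 ± 0.24). Its partner *Krt18* (2.63 ± 0.31), *Krt19* (2.77 ± 0.44) and *Krt7* (2.89 ± 0.30) were also called, and with *Id2* and *Ascl2* they made 6 called of 16 genes of trophectoderm and keratins (median 0.91). The transcription factors of the trophectoderm differed less. *Cdx2* stood at 0.54 and 0.88 CPM in H4 within the range of the other clones (0.00 ± 0.24), *Elf5* was at 0.10 and 0.088 CPM, and *Tfap2c* (0.91 ± 0.18) and *Gata3* (0.91 ± 0.29) were not called. The 5 defining markers of trophectoderm summed to 61.7 to 67.4 CPM in H4, 24 to 25.8 in B9, 35.8 to 38.2 in C8 and 37.4 to 60.8 in WT cells, and only *Krt7* of them was called. The highest WT sum was that of replicate 2 under ATRi.

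Of 24 genes of epithelial and mesenchymal state, 9 were called higher (median 0.77), among them the annexins *Anxa3* (2.85 ± 0.35), *Anxa1* (2.46 ± 0.29) and *Anxa2* (1.36 ± 0.06) and the tight junction claudin *Cldn4* (1.36 ± 0.07). *Anxa2* had 48.0 and 50.2 CPM in H4 and 17.6 to 20.3 in the other clones, which overlapped each other. Members of both states were among those called, and neither *Cdh1* (0.39 ± 0.07), the cadherin of epithelia, nor *Vim* (-0.06 ± 0.11), the intermediate filament of mesenchyme, was called. Of 27 focal adhesion and integrin genes, 8 were called higher (median 0.64): *Cav1*, *Thbs1*, *Cav2*, the integrins *Itga8* (1.89 ± 0.13), *Itgb3* and *Itga3*, and the adaptors *Parva* and *Fermt1*. *Itgb1*, the common beta chain, differed by 0.21 ± 0.04.

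Markers of fibroblasts moved with these groups, and their part in the result was not tested. Of 14 genes of the wider fibroblast list, 6 were called higher and 1 lower (median 0.93). The 10 defining markers summed to 22.8 to 26.1 CPM in H4, 8.98 to 10.9 in B9, 10.6 to 10.9 in C8 and 5.82 to 7.28 in WT cells. Of these, 4 were called higher (*Col1a1*, *Col1a2*, *Col3a1* and *Twist2*), 1 was called lower (*Thy1*), and *Lum* and *Prrx1* were under 0.1 CPM in both H4 libraries, with *Dcn* at 0.26 and 0.20 CPM and *Postn* at 0.16 and 0.13. *Col1a1*, a chain of type I collagen, had 14.2 and 16.9 CPM in H4, 3.74 and 4.11 in C8 and 2.04 and 2.54 in B9 (2.33 ± 0.23). *Twist2* rested on 26 counts in H4 and 4 and 2 counts in B9 and C8. Markers of cardiac and skeletal muscle summed to 12.6 CPM in both H4 libraries and to 10.6 to 12.8 in B9 and C8, with none called and *Myog* under 0.1 CPM, while the muscle actins were high. In bulk RNA, more cells of a type and more RNA per cell cannot be told apart.

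Imprinted genes included the gene with the largest lower value. *H19*, a maternally expressed non-coding RNA (chr7:142575529-142578143, minus strand), had 18.2 and 21.4 CPM in B9, 33.6 and 35.1 in C8 and 1.77 and 1.83 in H4, against 12.5 to 21.5 in WT cells. H4 was far below every other library, with a log2 fold change of -3.90 ± 0.35. Its neighbour *Igf2* (chr7:142650766-142666816, minus strand), a growth factor expressed from the paternal allele that shares enhancers with *H19*, had 0.33 and 0.27 CPM in B9, 0.44 and 0.72 in C8 and 3.27 and 3.67 in H4, against 0.12 to 0.62 in WT cells. H4 was highest, without overlap (*Igf2*, 2.95 ± 0.30). A low *H19* beside a high *Igf2* was also seen in the *Ccnc* KO clone D1, given further on. Both genes share exon bases with another annotated gene, so reads there may have been counted for either or for neither.

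A second pair of neighbours, on chromosome 6, was higher in H4. *Peg10*, a paternally expressed gene derived from a retrotransposon (chr6:4747306-4760517, plus strand), had 222 and 193 CPM in B9, 265 and 322 in C8 and 649 and 747 in H4, against 272 to 319 in WT cells (1.48 ± 0.16). *Sgce*, which starts beside it on the other strand and encodes epsilon-sarcoglycan, had 3.30 and 2.95 CPM in B9, 3.71 and 4.06 in C8 and 17.6 and 14.4 in H4 (2.18 ± 0.14). Both were above every other library of the multiplex in H4. *Sfmbt2*, a Polycomb protein, had 116 and 106 CPM in H4, 57.7 and 57.2 in C8 and 34.4 and 30.7 in B9 (1.31 ± 0.24), with WT cells at 63.2 to 74.6 between H4 and C8. *Grb10*, an adaptor of the insulin receptor, had 35.1 and 35.5 CPM in H4 and 11.1 to 22 in the other clones (1.17 ± 0.25).

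In all, 5 of 34 imprinted genes were called higher and 1 lower, with a median of 0.28 (0.18 without B9). Both H4 libraries lay above all libraries of B9 and C8 for 19 of the 34 and below them for 3, beside the 20.4% and 17.7% of all genes given above. Those above included *Nnat* (0.98 ± 0.17), *Peg3* (0.78 ± 0.12) and the maternally expressed *Meg3* (0.83 ± 0.11). *Snrpn* (-0.12), *Mest* (-0.14), *Cdkn1c* (-0.15 ± 0.15) and *Kcnq1ot1* (-0.04) stood near 0. Reads were not assigned to alleles, and DNA methylation was not measured.

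**Figure D2:**
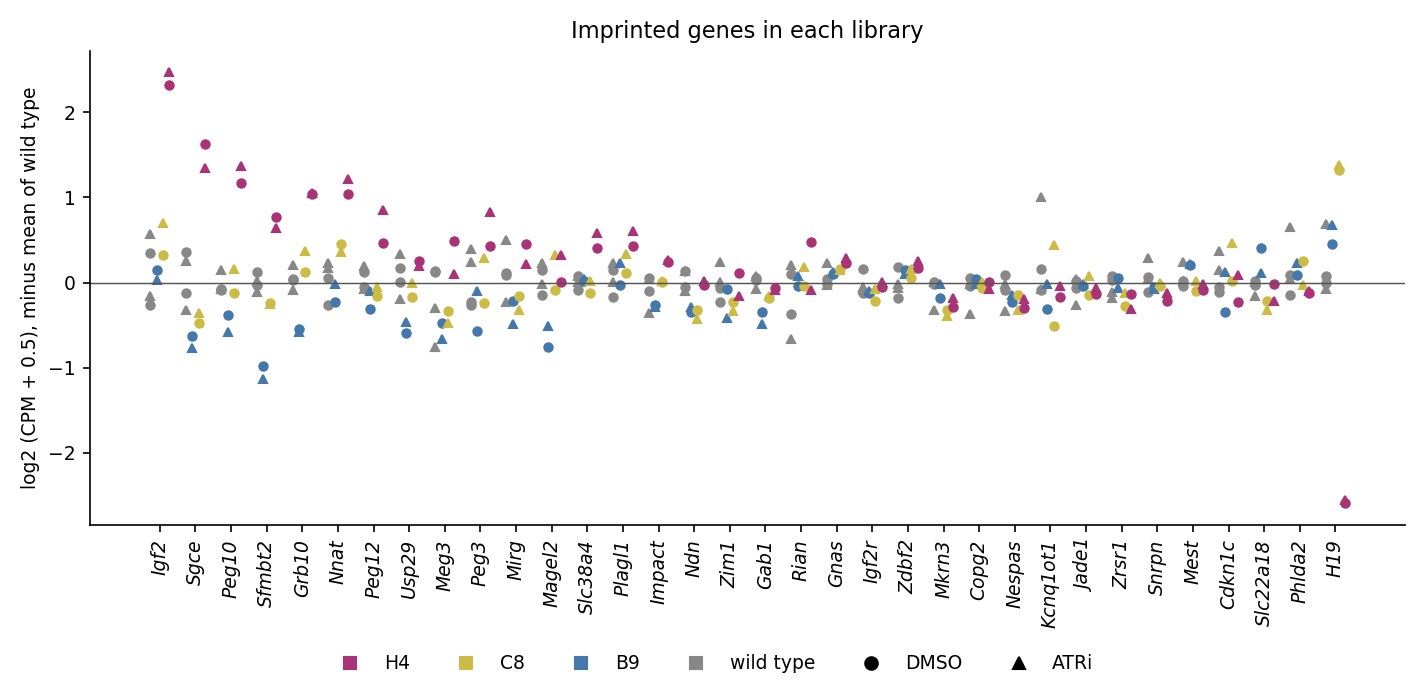
Imprinted genes tested in the *Cdk8* multiplex, ordered by log2 fold change in H4, with log2 (CPM + 0.5) of each library minus the mean of the WT libraries on the vertical axis (1 point per library). H4 stands above the other libraries for *Igf2*, *Sgce*, *Peg10*, *Sfmbt2* and *Grb10* and below them for *H19*, and most of the remaining genes lie near 0 in every clone.

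Genes of the interferon response and of antigen presentation gave smaller groups. *Gbp2*, a guanylate-binding protein induced by interferon, had 0.64 and 0.79 CPM in B9, 4.22 and 4.90 in C8 and 17.6 and 19.2 in H4, against 0.25 to 1.05 in WT cells. The 3 clones formed separate steps (2.83 ± 0.63). *Gbp2b* (2.88 ± 0.65) and *Gbp3* (2.14 ± 0.45), which lie beside it on chromosome 3, did the same, and these 3 were the only ones called of 30 interferon response genes tested (median 0.26, or 0.17 without the DMSO library of B9). *Oas1a*, an antiviral synthetase induced by interferon, differed by -1.17 ± 0.34 without being called. Of 18 genes of MHC class I presentation, 4 were called higher (median 0.50, or 0.80 without C8): the peptide transporters *Tap1* (1.18 ± 0.10) and *Tap2* (1.65 ± 0.24), the immunoproteasome subunit *Psmb8* (2.19 ± 0.49) and *H2-T22* (1.25 ± 0.18). *Tap1* had 11.4 and 8.35 CPM in H4 and 3.82 to 4.95 in the other clones. The classical class I genes *H2-K1* (-0.08 ± 0.21) and *H2-D1* (-0.02 ± 0.10) overlapped between the clones. Genes of the H2 and Gbp families have close copies, and reads that match several of them may be split or lost.

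Of 23 genes of naive pluripotency, 1 was called lower in H4 and none higher, the median was -0.44, and both H4 libraries lay below all others for 18, beside 17.7% of all genes. *Tbx3*, a T-box factor of the naive state and the one called, had 113 and 118 CPM in B9, 74.9 and 95.2 in C8 and 40.9 and 45.8 in H4, against 63.8 to 75.4 in WT cells. H4 was below and B9 above the WT range (-1.21 ± 0.16). *Prdm14* (-0.87 ± 0.12), *Klf4* (-0.60 ± 0.14), *Zfp42* (-0.55 ± 0.07), *Nanog* (-0.49 ± 0.11) and *Esrrb* (-0.47 ± 0.08) were not called. *Nanog* had 206 and 197 CPM in H4, 256 and 248 in C8 and 317 and 310 in B9. Core and formative genes differed less, with none of 20 called, a median of -0.09 (-0.017 without C8 and -0.051 without the DMSO library of H4), *Pou5f1* at -0.08 ± 0.05 and *Dnmt3b*, a DNA methyltransferase of formative cells, at 0.65 ± 0.09.

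Primitive endoderm genes mark the extraembryonic layer that arises beside the epiblast. Relative to WT their median was 1.08 in H4, 1.29 in B9 and 1.62 in C8, so H4 was the lowest of the 3. Against the other clones, 2 of 28 were called lower in H4 and none higher (median -0.67). These were *Hnf4a*, a nuclear receptor of endoderm (0.31 and 0.40 CPM in H4 against 0.85 to 1.24, -1.53 ± 0.28) and *Cubn*, an endocytic receptor of visceral endoderm (23.5 and 24.9 CPM in H4, 40.4 and 35.6 in B9, 55.0 and 63.3 in C8, -1.0 ± 0.22). WT cells had 3.00 to 5.30 CPM of *Cubn*, below all clones. The factors *Gata4* (-0.47 ± 0.19) and *Gata6* (-0.70 ± 0.10) were not called, and *Sox17* (-0.25 ± 0.18) overlapped. The value for this list without C8 was -0.32 and without B9 -0.95. Of 21 neuroectoderm genes, 1 was called higher and none lower (median 0.61), a share near the 3.00% of all genes. It was *Nes*, the intermediate filament nestin, with 78.6 and 90.4 CPM in H4 and 21 to 33.8 in the other clones and 18.8 to 27.7 in WT cells (1.70 ± 0.17). Relative to WT, the neuroectoderm list had medians of -0.60 in B9, -0.44 in C8 and -0.22 in H4. *Pax6*, for example, had 7.40 and 9.14 CPM in H4, 4.12 to 7.24 in the other clones and 11.2 to 12.1 in WT cells.

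**Figure D3:**
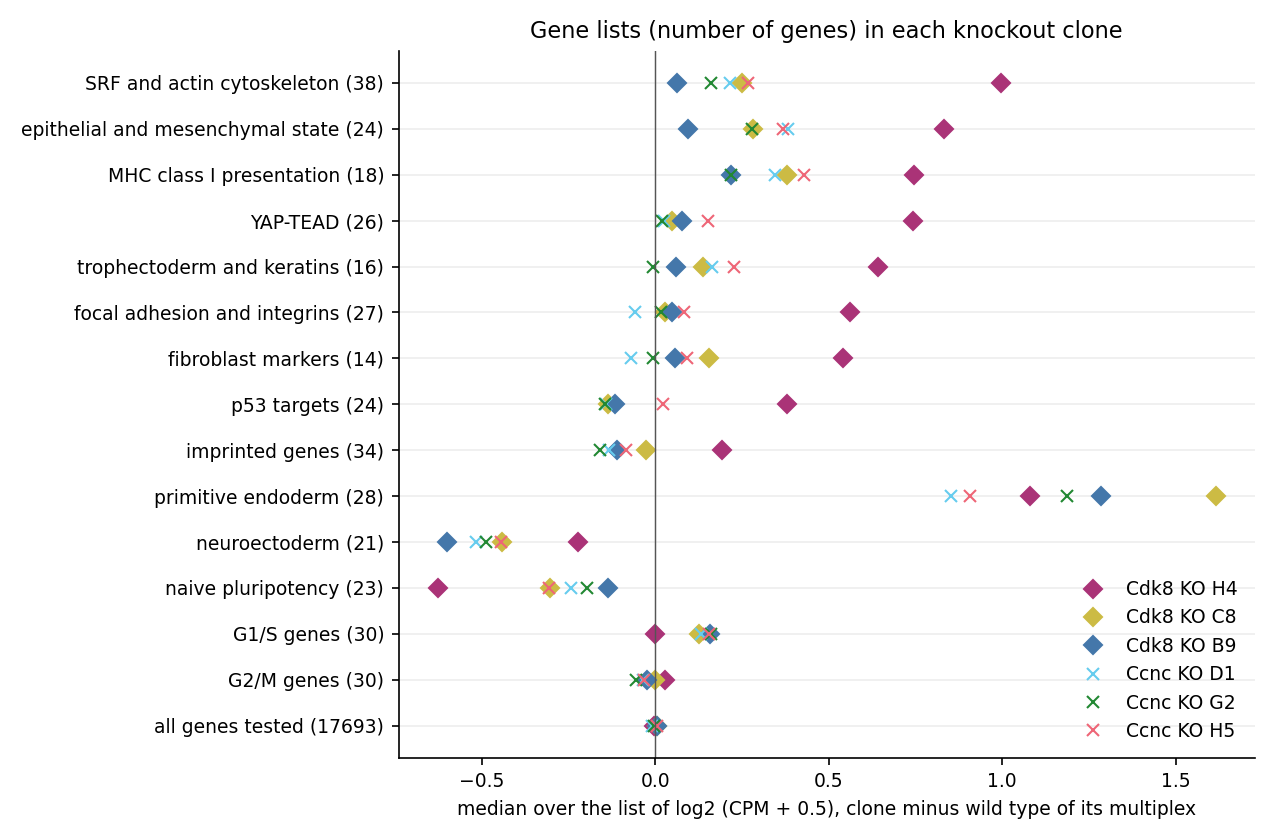
Median over each gene list of the log2 (CPM + 0.5) difference from the WT libraries of the same multiplex, for the 3 *Cdk8* KO clones (diamonds) and the 3 *Ccnc* KO clones (crosses). For the SRF and actin list H4 lies at 1.00 and the other 5 clones between 0.06 and 0.27, whereas for primitive endoderm all 6 clones lie between 0.85 and 1.62.

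Signalling targets gave mixed values. Of 20 genes of the Wnt list, 4 were called higher (the ligands *Wnt3* and *Wnt8a*, and *Rnf43* and *Sp5*) and 1 lower (*Lgr5*, -1.35 ± 0.32). The feedback gene *Axin2*, a common readout of the pathway, stood at -0.63. The median of the list was -0.14 (-0.035 without C8 and -0.077 without the ATRi library of B9). *Sp5* had 9.86 and 11.3 CPM in H4, 2.70 to 4.58 in the other clones and 8.40 to 10.2 in WT cells, so that H4 was close to WT or just above it and the other clones were below it (1.55 ± 0.20). Of 21 targets and components of TGF-beta, Nodal and BMP signalling, 4 were called higher (*Tgfb2*, *Id2* and *Ltbp1* among them) and 2 lower (*Inhbb*, an activin subunit, -1.31 ± 0.21, and *Tgfbi*, -1.17 ± 0.12). Of 20 FGF-ERK targets, the AP-1 subunit *Jun* (1.79 ± 0.26) and the phosphatase *Dusp4* (1.18 ± 0.13) were called higher and none lower. Their median was 0.21. Both H4 libraries lay above all libraries of B9 and C8 for 9 targets and below them for 0, beside 20.4% and 17.7% of all genes. *Spry4* and *Etv4*, which respond to FGF in mESCs, stood at -0.25 and -0.22.

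Of 24 p53 targets, 3 were called higher (*Perp*, *Fas* and *Plk2*; 3.00% of all genes) and none lower, with a median of 0.47, and both H4 libraries lay above the others for 17, beside 20.4% of all genes. *Perp*, a membrane protein of desmosomes, had 146 and 162 CPM in H4, 47.4 to 59.4 in B9 and C8 and 51.1 to 67.0 in WT cells (1.52 ± 0.07), with B9, C8 and WT overlapping. The cell cycle inhibitor *Cdkn1a* (42.1 and 39.4 CPM against 25.3 to 28.3, 0.63 ± 0.07) and the p53 ligase *Mdm2* (0.63 ± 0.05) were not called, while *Bax* (0.06) and *Gdf15* (0.00) stood near 0. Of 30 G1/S genes none was called (median -0.13), although both H4 libraries were below the others for 23, beside 17.7% of all genes. Set against WT, the G1/S median was -0.001 for H4, 0.16 for B9 and 0.13 for C8, and 0.13 to 0.16 for the *Ccnc* KO clones. H4 thus stood near the WT level, and the other clones stood above it. *Mcm5*, a subunit of the replicative helicase, had 945 and 1016 CPM in H4 and 1061 to 1210 in the other *Cdk8* KO clones. WT replicate 2 under ATRi had 920 CPM of it and the other WT libraries 994 to 1056, so both H4 values lay within the WT range. Of 30 G2/M genes none was called (median 0.04). Nor was any of 12 mitochondrially encoded genes (median -0.21, or -0.12 without the DMSO library of B9) or 22 mesoderm and cardiac genes (median 0.21, but 0.008 without the ATRi library of H4 and 0.083 without that of B9), and 1 of 20 basement membrane genes was (*Col4a5*, 1.94 ± 0.38, at 0.62 and 0.40 CPM in H4). Of the 21 genes of the 2-cell-like state only *Zfp750* passed the filter on low counts (0.75 ± 0.11, not called), and of 8 X and Y dosage markers only *Tsix* (-0.42 ± 0.16, not called).

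**Figure D4:**
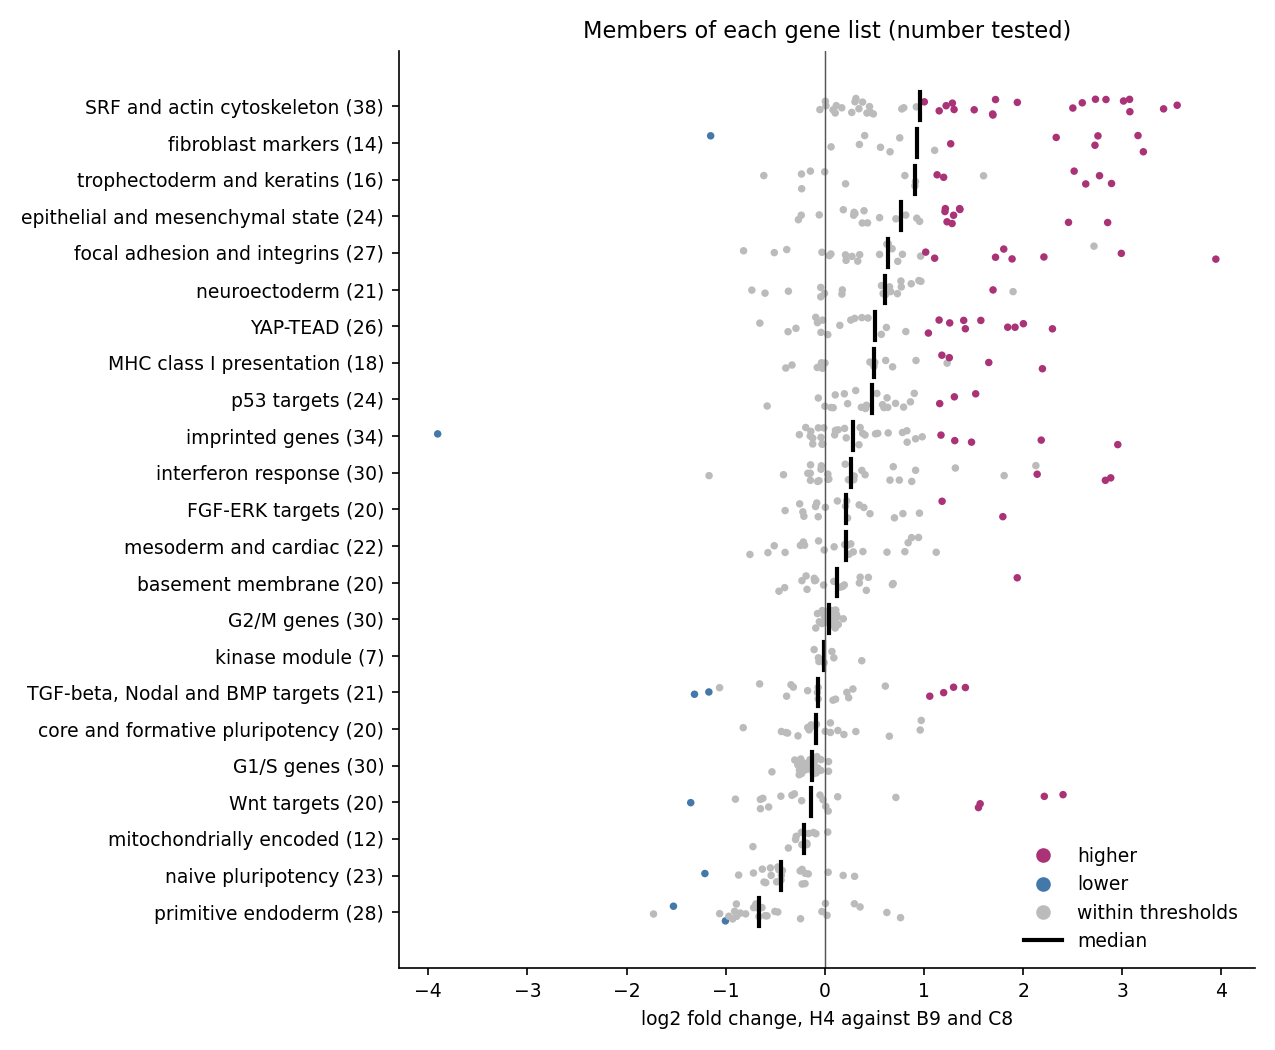
Log2 fold change of H4 against B9 and C8 for the tested members of each gene list (1 point per gene; number of genes in brackets; coloured where called higher or lower; black bar, median). The list medians run from -0.67 (primitive endoderm) to 0.96 (SRF and actin cytoskeleton), and the G1/S and G2/M genes lie close to 0.

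The 12 genes with the largest lower values did not belong to 1 pathway of the lists. Besides *H19* they were *Fkbp6* (-2.30 ± 0.44), a chaperone partner of the germline, *Muc3* (-2.04 ± 0.28), a membrane mucin, *Cyp1a2* (-1.99 ± 0.53), a cytochrome P450, *Slc25a34* (-1.95 ± 0.39), *Asgr2* (-1.85 ± 0.45), a receptor of hepatocytes, *Adipoq* (-1.84 ± 0.31), the hormone adiponectin, *AC131065.2* (-1.83 ± 0.44), *Khdc3* (-1.81 ± 0.28), an oocyte and mESC protein, *Tbx3os1* (-1.76 ± 0.31), the antisense transcript beside *Tbx3*, *Ddr2* (-1.74 ± 0.34), a collagen receptor, and *Hpcal4* (-1.68 ± 0.24). *Khdc3* had 26.5 and 24.9 CPM in B9, 15.9 and 15.0 in C8 and 5.04 and 6.67 in H4. WT replicate 2 under ATRi had 6.94, and the other WT libraries had 13.1 to 16.9. H4 was lowest and B9 highest, with no overlap between the clones. *Hpcal4* had 9.65 and 9.70 CPM in B9, 6.56 and 6.4 in C8 and 2.67 and 2.36 in H4, with WT cells at 4.62 to 6.59. For *Asgr2* and *Adipoq* the H4 libraries were within the WT range, and the other clones lay above it.

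The genes called were spread over the genome. The median log2 fold change of the 20 chromosomes with at least 100 genes tested lay between -0.05 and 0.01, and the share called higher between 1.06% on chromosome 12 and 4.14% on chromosome 15. Of the 531 genes called higher (3.00% of all genes tested), 79 (14.9%) had a tested neighbour that was called higher too, in 38 runs. The runs of 3 were *Krt7*, *Krt8* and *Krt18*, *Tap1*, *Psmb8* and *Tap2*, and *Gbp3*, *Gbp2b* and *Gbp2*. Of those called lower (0.633% of all genes tested), 6 of 112 (5.36%) had a neighbour called lower, in 3 runs. The share with such a neighbour by position alone was not computed.

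Whether H4 responded differently to ATRi was tested as the interaction of clone and treatment, which had not been used to choose the clone. No gene was called at an edgeR adjusted p under 0.05 (0%), and 117 of 17693 had an unadjusted p under 0.05 (0.661%). With DESeq2, again none was called and 9 had an unadjusted p under 0.05. This fit leaves the differences between clones in the error, and for *Acta2* the standard error of the interaction was 1.92 and for *Acta1* 1.51, so a difference in response could not have been detected in such genes. With each clone as a block, 504 genes had an unadjusted p under 0.05 and 1 was called, the processed pseudogene *Gm8606*, at -0.94 ± 0.12 (edgeR adjusted p = 0.00226). The response of H4 is a single difference between 2 libraries, so this p rests on the agreement of B9 and C8. *Gm8606* had 24 and 43.5 CPM in B9 and 38.2 and 58.6 in C8, both higher under ATRi, and 52.3 and 45.7 in H4. Without the block its value was -0.92 ± 0.40 (edgeR adjusted p = 1), and reads of a processed pseudogene can come from its parent gene.

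The *Ccnc* KO clones provided libraries that had no part in the choice of H4, and they were used to ask whether the genes that were high in H4 also changed when the cyclin partner of CDK8 was lost. *Ccnc* itself had 4.24 to 7.41 CPM in the *Ccnc* KO libraries and 43.3 to 45.4 in WT libraries. The ATRi library of WT replicate 2 did not enter this comparison. Against the 3 other WT libraries, 296 of 17796 genes rose in *Ccnc* KO cells (1.66%) and 58 fell (0.326%) by edgeR's quasi-likelihood test. Without WT replicate 1 the number was 91 in all. This fit counts the DMSO and ATRi libraries of a line as separate. The p-values given below for *Ccnc* KO therefore measure the spread between libraries and not that between lines. Of the 531 genes called higher in H4, 473 were tested, of which 63 rose (13.3%, against 1.67% of all genes tested in both multiplexes) and 6 fell (1.27%, against 0.29%), with a median of 0.36. Of the 112 called lower in H4, 110 were tested, of which 11 rose (10%) and 2 fell (1.82%, *Pla2g1b* and *Rpl39l*), with a median of 0.38. These shares were not tested against that of all genes. From the other side, 63 of the 290 genes raised in *Ccnc* KO cells and tested in both were called higher in H4 (21.7%) and 11 lower (3.79%), and of the 51 lowered genes 6 were called higher (11.8%) and 2 lower (3.92%).

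*Acta2* rose from 1.62 to 1.89 CPM in WT libraries to 15.7 to 34.5 in *Ccnc* KO libraries (3.71 ± 0.32, edgeR adjusted p = 7e-06), a level between those of B9 and C8. *Krt8* rose from 7.24 to 8.14 CPM to 14.7 to 31.5 (1.46 ± 0.23, edgeR adjusted p = 0.000876) and *Gbp2* from 0.37 to 0.48 CPM to 1.08 to 3.65 (2.57 ± 0.39, edgeR adjusted p = 0.000693). In each case H4 stood above every *Ccnc* KO library, although levels in the multiplexes were scaled apart. Of the SRF list, 8 of 37 genes rose in *Ccnc* KO cells and none fell (median 0.24), and the members not called there included *Tpm1* (0.23 ± 0.09) and *Zyx* (0.31 ± 0.09). Of the YAP list, 3 of 26 rose (*Ankrd1*, *Ccn1* and *Amot*), of the keratin list 4 of 15 and of the MHC class I list 2 of 18 (*B2m* and *H2-Q2*).

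None of the 34 imprinted genes was called in *Ccnc* KO cells (median -0.15). *H19* had 3.88 and 3.37 CPM in D1, 10.8 and 9.17 in G2 and 39.1 and 39.7 in H5 against 13.7 to 15.1 in WT libraries, so its level varied between those clones too (0.31 ± 0.62). *Igf2* had 1.12 and 1.09 CPM in D1, 0.38 and 0.47 in G2 and 0.61 and 0.70 in H5 against 0.27 to 0.38 in WT libraries (1.20 ± 0.39, edgeR adjusted p = 0.0549). Clone D1 thus had the lowest *H19* and the highest *Igf2* of the *Ccnc* KO clones, as H4 had among the *Cdk8* KO clones. *Peg10* (-0.30 ± 0.09) and *Sgce* (-0.28 ± 0.16) were not called. Of the primitive endoderm genes, 17 of 28 rose, with a median of 1.39, and among the 11 genes raised in *Ccnc* KO cells and called lower in H4 were *Cubn* (2.59 ± 0.23), *Hnf4a* (1.39 ± 0.31), *Lgr5* and *Adipoq* (1.56 ± 0.30). Of the neuroectoderm genes, 6 of 20 fell, with a median of -0.76, and *Nes* was not among them (-0.21 ± 0.09). The 6 genes lowered in *Ccnc* KO cells and called higher in H4 were *Frem2*, *C1qtnf6*, *Sp5* (-1.58 ± 0.11), *Atp1a4*, *Nrp2* and *Gna14*. No p53 target was called in *Ccnc* KO cells (24 tested, median -0.10), where *Perp* stood at 0.15 ± 0.09.

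**Figure D5:**
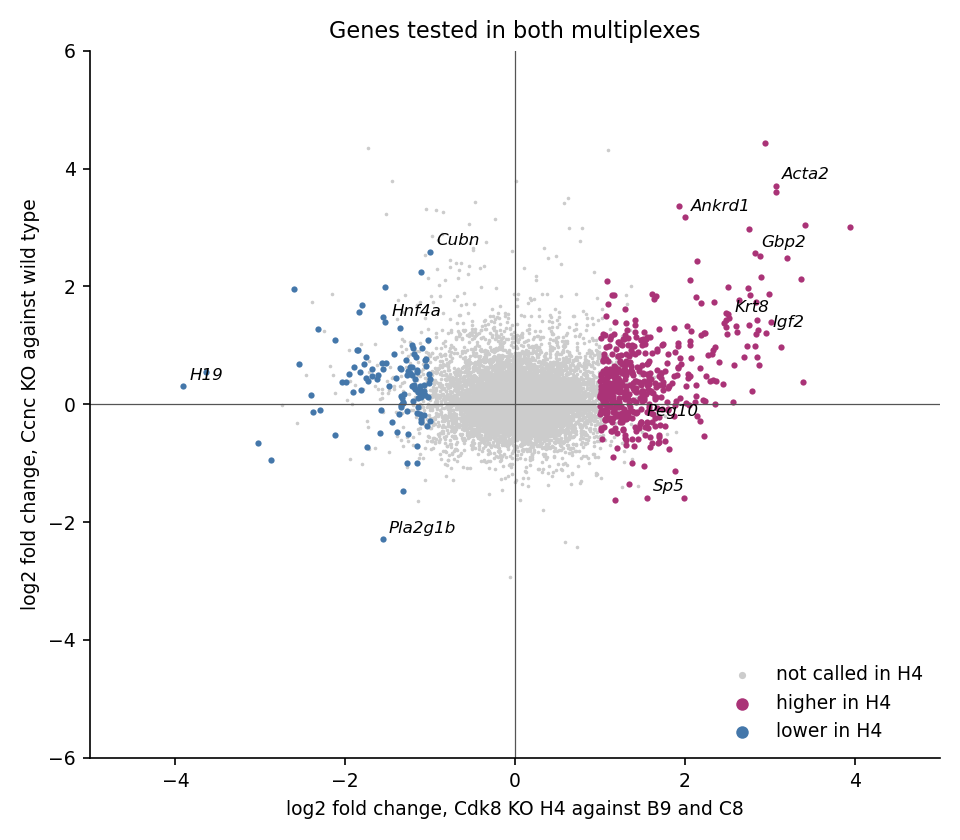
Log2 fold change of *Ccnc* KO against WT (vertical axis) and of *Cdk8* KO clone H4 against B9 and C8 (horizontal axis) for 17337 genes tested in both multiplexes, coloured where called in H4. *Acta2*, *Krt8* and *Gbp2* lie high on both axes, *H19* (0.31) and *Peg10* (-0.30) lie close to 0 on the vertical axis, and *Cubn* and *Hnf4a* lie above 0 on it and below 0 on the horizontal one.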

How the data were processed

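Poly(A) RNA was sequenced single-end from directional libraries. Per the study's methods and the submitters' processing notes, reads were trimmed with Trimmomatic 0.38, aligned with HISAT2 2.1.0 to GRCm38.p6 and counted per gene with featureCounts 2.0.1 by strand. The treatment of reads that map to several places is not given in the sources used here. The authors deposited raw counts per gene and lane, 1 matrix per multiplex, and the 2 lanes of a library were summed here. The deposited regularised log tables were not used. Total counts were 30899823 to 67274049 in the *Cdk8* KO libraries and 32483964 to 49053522 in the others. WT replicate 2 under ATRi was left out of comparisons with WT, as the study did, while ranges of WT levels cover all 4 WT libraries of the *Cdk8* multiplex.

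Counts were tested in edgeR 4.0.16 (R 4.3.3) with TMM scaling, filterByExpr and the quasi-likelihood test, Benjamini-Hochberg adjusted over all genes, with treatment as covariate and the 6 *Cdk8* KO libraries alone in the fit. Standard errors are the log2 fold change over the square root of F. Where nothing else is said, p-values measure the spread between libraries, and the 2 libraries of a clone are not independent lines. DESeq2 1.42.0 and limma 3.58.1 were used for alternatives, and the fits were tested on simulated data. Coordinates come from GENCODE. Values over WT use log2 (CPM + 0.5) without WT replicate 2 under ATRi.

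The same clone gave the DMSO and the ATRi library, which pairs them, and the deviations from the treatment means correlated within H4 (r = 0.883), B9 (0.822) and C8 (0.485) over 13568 genes, which are not independent replicates.

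The clone, the 25 gene lists and the tests were chosen with earlier results of these data known. Genes were named by rule: the kinase module, the 12 largest differences in each direction among genes called with a mean of at least 1 CPM in the higher group and no overlap, up to 4 called members of each list (2 members where none was called) and up to 10 genes of the interaction. Other genes named were chosen after their values were seen.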

Additional observations from a re-analysis of the deposited data

Results flagged for a closer look

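The response to ATRi of *Gm8606* differed between H4 and the other clones when each clone was fitted as a block, by -0.94 on the log2 scale (edgeR adjusted p = 0.00226), with higher levels under ATRi in B9 and C8 and a lower level in H4. The response of H4 is a single difference between 2 libraries, so this p rests on the agreement of B9 and C8. Without the block the adjusted p was 1 in edgeR. Groups of 3 libraries were too small for the check of single outlying samples.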

How the results depend on the processing

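For H4 against B9 and C8, 643 genes were called in all, and the number was 843 without a filter on low counts, 498 with DESeq2, 2720 without a fold threshold, 0 in the DMSO libraries alone (2450 at an unadjusted p under 0.05 in edgeR) and 65 in the ATRi libraries alone. It was 25 to 1188 when a clone or a library was left out, lowest without the DMSO library of H4 and highest without C8, and 555 with the clone as a random effect (replicate block). Every called gene that could be tested kept its sign under the 16 alternatives. Nearly all of these genes had both H4 libraries outside the range of B9 and C8. Their sign could therefore hardly change, and its being kept carries no weight as evidence. H4 against B9 had 934 to 1186 calls and H4 against C8 440 to 653 with a library left out, and the latter had 328 with DESeq2. C8 against B9 had 144 calls, 73 with DESeq2, 83 with all 10 libraries of the multiplex and 146 to 285 with a library left out. The interaction had 0 calls, 8 without the filter and 1 with each clone as a replicate block, and 0 with each library of B9 or C8 left out in turn, while leaving out one of H4 leaves no response to compare. *Ccnc* KO against WT had 354 calls, 171 in the DMSO libraries alone and 91 to 359 with a replicate left out. The causes of these changes were not tested, except that fewer libraries entered where some were left out. Among gene list medians, 358 of 400 values moved by less than the spread between replicates. Only medians close to 0 changed sign. That of TGF-beta, Nodal and BMP targets was -0.067 and became 0.053 without the DMSO library of C8. The median of the kinase module was -0.008 and became 0.074 without B9.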
